A study of Homo sapiens with 9 samples.

Results

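H448L replaces a histidine of SARS2, the mitochondrial seryl-tRNA synthetase, with leucine, and its effect was measured by setting the 3 mRNA libraries labelled H448L against the 3 labelled WT, 6 of the 9 libraries of the study. The other 3 libraries carry a second variant, R227Q, and served here to estimate the spread between libraries and the shift between sequencing submissions. All libraries came from Hap1, an established near-haploid human cell line of leukaemic origin that grows as adherent cells. Every line shared the same background: ∆SARS2, a deletion in the endogenous gene; SARS2-1xFLAG, a tagged copy switched on by doxycycline; and a constitutive copy labelled SARS2+int14-myc, which was WT, R227Q or H448L. The cells had been kept for 6 days without doxycycline, so that by design the constitutive copy was the source of the enzyme. The promoter of that copy, the number of clones and whether replicates were separate cultures are not given in the labels, so the p-values reflect only how these libraries vary, and that variation may be technical.

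SARS2 attaches serine to the serine tRNAs of mitochondria, which the mitochondrial ribosome needs to build the respiratory chain subunits encoded by mitochondrial DNA. Impaired mitochondrial translation is known in many cell types to engage the integrated stress response, in which phosphorylation of a translation initiation factor favours synthesis of the transcription factor ATF4, and ATF4 with its partners switches on genes for amino acid synthesis, transport and redox balance. SARS2 variants are known from recessive multisystem disease.

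The reference sequence around the changed residue shows which codon the variant alters. It is written 5′ to 3′ on the coding strand from the GENCODE transcript, with the codon named in H448L in capitals.
SARS2 around the H448L codon: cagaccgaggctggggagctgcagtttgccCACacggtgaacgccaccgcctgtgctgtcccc
The histidine is encoded by CAC at chr19:38916040-38916042 on the minus strand (GRCh38), in coding exon 14 of 16, and the exon has 3 further bases after this codon. The coding sequence has 518 codons.

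Total counts per library ran from 9900892 to 11229588 in H448L and from 11055106 to 12991050 in WT, so that 1 count equals 0.077 to 0.101 CPM, the count scaled to a library total of 1000000. The column names place WT 1 and WT 2 in one submission to the sequencing service (SDKYMR) and WT 3 with all 3 H448L libraries in another (4LJFHN). Of 16908 genes tested, 7409 (43.8%) differed between the submissions, and the fit therefore held group and submission. In that fit, taking equal variance, WT 3 carried a weight of −0.667 in the H448L difference, and WT 1 and WT 2 −0.167 each. Through the submission term R227Q 1 carried 0.333, as much as each H448L library, and R227Q 2 and R227Q 3 −0.167 each. Levels of genes of other tissues also differed by submission: HBG1, a fetal haemoglobin gene, was at 0 in WT 1 and WT 2, at 16.2 CPM in WT 3 and at 14.4, 16.1 and 19.9 CPM in H448L 1 to 3. HBA1, an adult haemoglobin gene, was at 6.62 and 7.11 CPM in WT 1 and WT 2, at 81.9 CPM in WT 3 and at 82.7, 87.9 and 97.3 CPM in H448L. With WT 3 in the fit neither gene passed the test (log2 fold changes 0.02 ± 0.14 and 0.17 ± 0.08, SE, edgeR adjusted p = 0.95 and 0.25), while without WT 3 HBA1 was called at 0.76 (edgeR adjusted p = 0.045).

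SARS2 itself was read at 7.70, 8.54 and 6.20 CPM in WT 1 to 3 and at 7.88, 8.68 and 7.93 CPM in H448L 1 to 3. The groups overlapped, and the log2 fold change of 0.28 ± 0.15 (SE, edgeR adjusted p = 0.29) did not pass. A count per gene does not separate the H448L codon from the WT codon, so this level does not check the genotype. SARS2 overlaps AC011455.2 on the same strand over most of its span, and counting by strand would not separate reads of that overlap. It also overlaps MRPS12 on the opposite strand, and no source used here says whether counting used strand. The SARS2 level is therefore uncertain where reads were shared. MRPS12, a mitochondrial ribosomal protein, did not pass either (−0.18 ± 0.07, edgeR adjusted p = 0.10).

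H448L cells differed from WT in many genes by small amounts. At a Benjamini-Hochberg adjusted p under 0.05 in edgeR's quasi-likelihood test, 1347 genes (7.97%) were called, 503 (2.97%) higher and 844 (4.99%) lower in H448L. The median size of a called change was 0.31 on the log2 scale, against 0.13 over all genes. Larger changes were mostly rises: 174 called genes were higher and 49 lower by 1.5-fold or more, and at 2-fold or more the counts were 69 and 14. Of the 4227 genes at 42.5 CPM and above 139 rose and 594 fell, whereas of the 4227 at 3.36 CPM and below 74 rose and 20 fell. The share of falls over all genes is therefore a low comparison for lists of abundant genes. Long non-coding RNAs had 103 rises (3.45%) and 32 falls (1.07%) among 2987 tested, and protein-coding genes 367 rises (2.82%) and 795 falls (6.11%) among 13006. Without WT 3 these were 11 rises and 6 falls for long non-coding RNAs and 63 and 160 for protein-coding genes. WT 3 had 28041 genes with a count, the fewest of the 9 libraries, against 28933 to 29824 in H448L. In 953 of the 1347 called genes (70.7%) the 3 H448L libraries lay outside the range of all 3 WT libraries in the called direction; over all genes tested, 31.5% had H448L outside the WT range. All 1347 had every H448L library beyond WT 3. Neither count is separate support, because the genes were called from these same libraries and WT 3 had the largest weight in the fit. The CPM ranges were also not adjusted for submission. Without WT 3, 253 genes were called, 86 higher and 167 lower, and 235 of them were among the 1347; without R227Q 1, 771 were called.

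**Figure D1:**
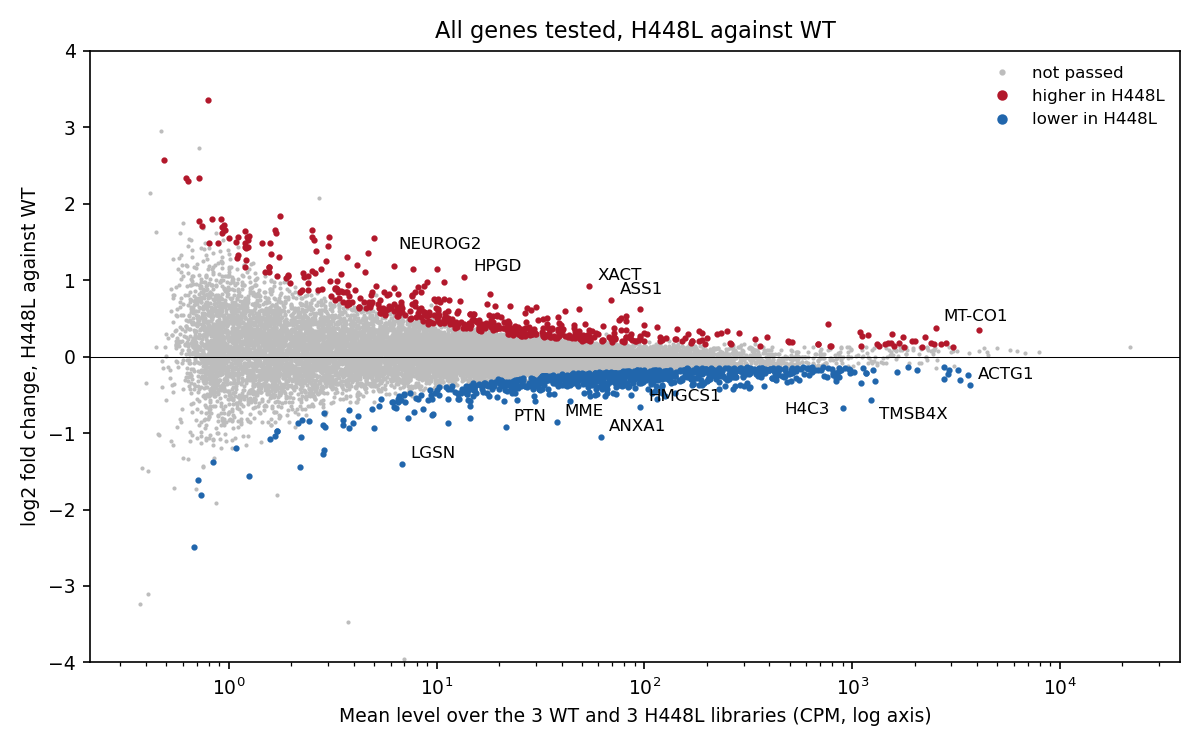
Log2 fold change of H448L against WT (vertical axis) by mean level over the 6 libraries in CPM (log axis), 1 point per gene tested, red for the 503 genes called higher and blue for the 844 called lower. Blue points crowd near 0 at high levels, and the larger changes at low levels are mostly red.

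Genes of the integrated stress response had more rises than falls in H448L. Of 31 tested members of a list of its known targets, 10 rose (32.3%, against 2.97% of all genes), 1 fell and 20 did not pass, and the list's median log2 fold change was 0.20 against 0.006 over all genes. Those that rose were ASNS, DDIT3, INHBE, GDF15, CHAC1, DDIT4, GPT2, CEBPB, WARS1 and STC2. With submission 4LJFHN alone 10 members were also called higher; DESeq2 called 6, the fit without WT 3 called 5 (ASNS, DDIT3, INHBE, GDF15 and DDIT4), and the fit without the submission term called 4. GPT2, CEBPB and STC2 stood at 0.25, 0.27 and 0.22 without WT 3 (edgeR adjusted p = 0.25, 0.18 and 0.47). The fall was that of KLHL24 (−0.29 ± 0.09, edgeR adjusted p = 0.041), which was not called without WT 3 (−0.28, adjusted p = 0.40).

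GDF15 encodes a secreted stress cytokine. It was at 2.08, 2.48 and 2.89 CPM in WT 1 to 3 and at 5.16, 6.65 and 5.66 CPM in H448L 1 to 3, the highest fold change of the list (1.20 ± 0.20, edgeR adjusted p = 0.00026). All H448L libraries were above all WT libraries. INHBE, an inhibin subunit and another secreted target of ATF4, was at 3.62, 3.99 and 5.46 CPM in WT and at 10.3, 12.3 and 10.7 CPM in H448L (1.15 ± 0.15, edgeR adjusted p = 6.9e-06). Again the groups were apart, and WT 3 was the highest WT library. ASNS, asparagine synthetase, stood at 58.5, 58.0 and 63.9 CPM in WT and at 88.7, 89.5 and 92.5 CPM in H448L (0.48 ± 0.06, edgeR adjusted p = 1.6e-06), with libraries of each group close together. For these genes the calls held without any single library.

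CHAC1 and DDIT3 showed another pattern. CHAC1, which degrades glutathione, was at 13.5, 14.4 and 6.24 CPM in WT and at 13, 10.4 and 11.5 CPM in H448L, so that H448L lay above WT 3 and below WT 1 and WT 2. Its fitted change of 0.74 ± 0.14 (edgeR adjusted p = 0.00087) came to 0.64 without WT 3 and was no longer called (edgeR adjusted p = 0.064), and without the submission term it was −0.04. DDIT3, which encodes the transcription factor CHOP, was at 32.3, 31.9 and 19.7 CPM in WT and at 30.4, 33.2 and 33.0 CPM in H448L. It was called at 0.65 ± 0.08 (edgeR adjusted p = 4.2e-06) and still called without WT 3 at 0.61 (edgeR adjusted p = 0.0039). Without WT 3 the comparison runs through R227Q 1 to 3, at 54.7, 36.7 and 34.0 CPM. Without the submission term DDIT3 was at 0.14 and not called (edgeR adjusted p = 0.71). Here too H448L overlapped WT 1 and WT 2 and stood apart from WT 3, and DDIT3 overlaps MARS and MBD6 on the opposite strand. ATF4 mRNA, which is regulated largely through translation, was at 317, 340 and 239 CPM in WT and at 259, 259 and 273 CPM in H448L, with a change of 0.13 ± 0.05 that did not pass (edgeR adjusted p = 0.11). TRIB3, a pseudokinase that restrains the response, had a value of 0.26 ± 0.09 and did not pass (edgeR adjusted p = 0.064).

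The promoters of 2 of these genes hold the letters of the composite element bound by C/EBP and ATF factors, TGATGNAA, and are shown because both genes were called. Each stretch is written 5′ to 3′ on the gene's strand (RefSeq, GRCh38.p14), with the match in capitals; in CHAC1 the match is on the opposite strand and reads TTGCATCA.
ASNS, chr7:97872443-97872502, minus strand: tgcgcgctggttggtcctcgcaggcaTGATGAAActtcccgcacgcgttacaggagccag
CHAC1, chr15:40953236-40953295, plus strand: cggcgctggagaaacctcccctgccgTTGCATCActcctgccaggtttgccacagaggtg
The match begins 68 bases before the start in ASNS and 209 bases before it in CHAC1. Searched on both strands over the 250 bases before the start, TGATGNAA was found in 6 of 25 tested genes of the list with a promoter entry (24.0%), in 2 of the 8 that rose and have an entry, and in 1061 of 27305 genes with an entry (3.89%). The 4 others with a match were ATF3, CEBPG, HERPUD1 and JDP2, whose log2 fold changes of 0.06, 0.05, 0.16 and −0.03 did not pass. A match in these letters does not show that a factor was bound.

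**Figure D2:**
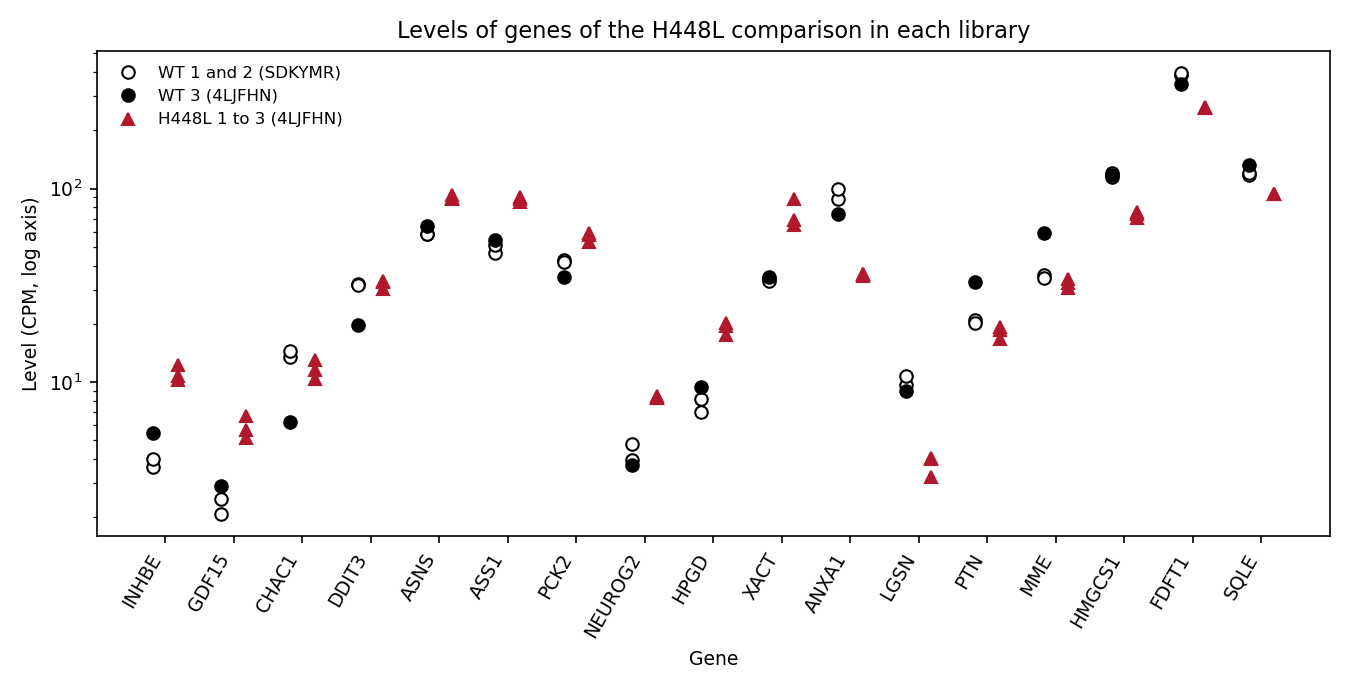
CPM (log axis) of 17 genes in each WT library (circles, open for submission SDKYMR and filled for 4LJFHN) and each H448L library (triangles). INHBE, ASNS, ASS1 and HPGD have the triangles above all circles and ANXA1, LGSN and HMGCS1 below, while for CHAC1, DDIT3, PTN and MME the filled circle lies apart from the open ones.

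Serine and one-carbon metabolism makes serine from a glycolytic intermediate and moves its carbon into folate. A list of its enzymes, which also held PCK2 and PYCR1 from outside this route, showed a few rises. Of 17 members tested, 4 rose (23.5%, against 2.97% of all genes), 1 fell (5.88%, against 4.99%) and the median was −0.01. The member that fell was MTHFD2L (−0.28 ± 0.09, edgeR adjusted p = 0.044), at −0.33 and not called without WT 3 (adjusted p = 0.26). PCK2, the mitochondrial phosphoenolpyruvate carboxykinase, was at 43, 42 and 35 CPM in WT and at 57.8, 53.3 and 59.3 CPM in H448L (0.62 ± 0.07, edgeR adjusted p = 9.4e-07), with every H448L library above every WT library; it overlaps NRL on the opposite strand. PHGDH, the first enzyme of serine synthesis, SHMT2, its mitochondrial hydroxymethyltransferase, and PYCR1, a proline synthesis enzyme, rose by 0.23 ± 0.05, 0.18 ± 0.05 and 0.23 ± 0.06 (edgeR adjusted p = 0.0049, 0.013 and 0.0088). For these 3 the libraries of the groups overlapped, and without WT 3 or without R227Q 1 none of the 3 was called, nor SHMT2 without H448L 2; without WT 3 the values were 0.28, 0.19 and 0.25. PSAT1 and MTHFD2, neighbours of PHGDH and SHMT2 in the pathway, had changes of −0.04 ± 0.05 and −0.10 ± 0.05 that did not pass (edgeR adjusted p = 0.67 and 0.20).

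ASS1, argininosuccinate synthase, which makes the precursor of arginine, was higher in H448L with little spread. Its levels were 46.3, 51.2 and 54.1 CPM in WT and 85.5, 88.6 and 90.8 CPM in H448L (0.74 ± 0.06, edgeR adjusted p = 1.3e-08), and the groups were far apart. Among 18 amino acid transporters 2 rose (11.1%, against 2.97% of all genes), 1 fell (5.56%, against 4.99%) and the median was 0.02. SLC7A3, a carrier of cationic amino acids such as arginine, was at 90.4, 88.4 and 84.2 CPM in WT and lower at 66.3, 67.7 and 63.6 CPM in H448L (−0.37 ± 0.06, edgeR adjusted p = 8.8e-05), again with no overlap. SLC38A2, a carrier of small neutral amino acids, and SLC7A6, part of a cationic amino acid exchanger, were called higher at 0.19 ± 0.06 and 0.26 ± 0.08 (edgeR adjusted p = 0.035 and 0.036); without WT 3 they stood at 0.18 and 0.26 with adjusted p = 0.39 and 0.34, and leaving out single libraries ended the call in 6 and 5 of 9 cases. Cytosolic aminoacyl-tRNA synthetases had 1 rise among 20 tested, WARS1 (0.24 ± 0.06, edgeR adjusted p = 0.0097; 0.18 and not called without WT 3, adjusted p = 0.37), and a median of 0.02.

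Genes of the compartment in which SARS2 works changed little. For comparison, 2.97% of all genes rose and 4.99% fell, and of the 4227 at 42.5 CPM and above 139 rose and 594 fell. Of 16 mitochondrial aminoacyl-tRNA synthetases tested, 0 rose and 1 fell: LARS2, the leucine enzyme, was at 54.9, 57.5 and 52.7 CPM in WT and 48.4, 43.1 and 47.8 CPM in H448L (−0.26 ± 0.07, edgeR adjusted p = 0.021). The groups did not overlap, but the call was lost without WT 3 (−0.36, adjusted p = 0.088), R227Q 1 or H448L 2. Of 17 mitochondrial translation factors 1 fell, GFM1, an elongation factor (−0.28 ± 0.07, edgeR adjusted p = 0.0065; −0.30 and not called without WT 3, adjusted p = 0.17). Mitochondrial ribosomal proteins had 1 rise (1.27%, MRPL10, 0.27 ± 0.08) and 6 falls (7.59%) among 79, with a median of −0.06. Without WT 3 there were 0 rises and 3 falls, and MRPL10 came to 0.12 (edgeR adjusted p = 0.70). MRPL3 and MRPL47, of the large subunit, fell by 0.33 and 0.29 on the log2 scale (edgeR adjusted p = 3.2e-05 and 0.00034). The H448L libraries of MRPL47, at 216, 213 and 202 CPM, were below those of WT, at 228, 219 and 252 CPM. Those of MRPL3, at 222, 218 and 214 CPM, overlapped WT, at 233, 218 and 267 CPM. Without the submission term MRPL3 and MRPL47 were at −0.19 and −0.20 and not called (edgeR adjusted p = 0.19 and 0.15). Of 75 nuclear-encoded respiratory chain subunits 0 rose and 2 fell, NDUFB4 and ATP5MC3 by 0.17 and 0.15 on the log2 scale (edgeR adjusted p = 0.012 and 0.034), neither called without WT 3 (−0.17 and −0.16, adjusted p = 0.28 and 0.33), and the median was 0.03.

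Mitochondrially encoded mRNAs had 3 rises and 1 fall among 13 (23.1% and 7.69%, against 2.97% and 4.99% of all genes), and a median of 0.11. Their share of counts was 4.38% in WT 3, the lowest of the 9 libraries. It was 5.31% and 4.92% in WT 1 and WT 2 and 4.67% to 5.24% in H448L. MT-CO1, a core subunit of cytochrome c oxidase, was at 2650, 2510 and 1960 CPM in WT and at 2510, 2870 and 2600 CPM in H448L (0.38 ± 0.05, edgeR adjusted p = 5.8e-06). H448L overlapped WT 1 and WT 2 and lay above WT 3. MT-ND4, of complex I, was at 4230, 3860 and 3390 CPM in WT and at 4400, 4270 and 4470 CPM in H448L (0.35 ± 0.04, edgeR adjusted p = 2.5e-06), where all H448L libraries were above WT. MT-ND2, another complex I subunit, was called at 0.18 ± 0.05 (edgeR adjusted p = 0.026) but not without WT 3 (0.19, adjusted p = 0.32), and MT-ATP8, of the ATP synthase, fell by 0.26 (SE 0.06, edgeR adjusted p = 0.0073), by 0.41 without WT 3, with overlapping libraries and no call without R227Q 1 (−0.20). MT-ATP8 overlaps MT-ATP6, and mitochondrial genes have near-identical nuclear copies, so their counts are uncertain where reads were shared. Without the submission term none of the 13 was called and the median was −0.22. The serine tRNA genes MT-TS1 and MT-TS2, the substrates of SARS2, were read at 0.646 to 4.23 CPM in these 6 libraries of poly-A mRNA and did not pass (0.12 ± 0.44 and −0.17 ± 0.22, edgeR adjusted p = 0.92 and 0.73); they were named after their values were seen.

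Mitochondrial chaperones and proteases, which include markers of the mitochondrial unfolded protein response, had 0 rises and 2 falls among 17. The share that fell was 11.8%, against 4.99% of all genes and 594 of the 4227 at 42.5 CPM and above. The median was −0.04. HSPD1, the chaperonin HSP60, was at 1270, 1240 and 1300 CPM in WT and at 1230, 1210 and 1240 CPM in H448L, and the change of −0.09 ± 0.04 did not pass (edgeR adjusted p = 0.21). LONP1, a matrix protease, was at −0.05 ± 0.05 and TFAM, the mitochondrial DNA packaging factor, at −0.17 ± 0.06 (edgeR adjusted p = 0.66 and 0.10). GRPEL1 and HSPE1, co-chaperones of the matrix, were called lower at −0.18 ± 0.05 and −0.16 ± 0.04 (edgeR adjusted p = 0.034 and 0.020) and not called without WT 3 (−0.23 and −0.10, adjusted p = 0.20 and 0.60). In the tricarboxylic acid cycle and pyruvate dehydrogenase list 3 of 21 fell and the median was −0.01. That was 14.3%, against 4.99% of all genes and 594 of the 4227 at 42.5 CPM and above. PDHA1 and PDHB, the subunits of the first pyruvate dehydrogenase component, were lower in all H448L than in all WT libraries: PDHA1 was at 149, 155 and 133 CPM in WT and 108, 116 and 118 CPM in H448L (−0.27 ± 0.05, edgeR adjusted p = 0.0016). PDHB was at 96.0, 87.1 and 63.9 CPM in WT and 48.2, 50.9 and 52.1 CPM in H448L (−0.35 ± 0.07, edgeR adjusted p = 0.0008), and at −0.33 without WT 3 it was not called (adjusted p = 0.093). SUCLG2, a succinyl-CoA ligase subunit, was called at −0.31 ± 0.06 (edgeR adjusted p = 0.001), with overlapping libraries.

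Sterol biosynthesis, the pathway from acetyl-CoA through mevalonate and squalene to cholesterol, had mostly falls in H448L. Of 24 tested members 18 fell, 1 rose (TM7SF2, 0.24 ± 0.07, edgeR adjusted p = 0.048; 0.27 and not called without WT 3, adjusted p = 0.28) and 5 did not pass, against 4.99% of all genes called lower, and the median was −0.33 on the log2 scale. At the entry of the pathway, HMGCS1, which makes HMG-CoA, was at 120, 115 and 117 CPM in WT and at 75.9, 70.9 and 74.3 CPM in H448L (−0.66 ± 0.06, edgeR adjusted p = 1.6e-08). All H448L libraries were well below WT, and the WT libraries of both submissions had like levels. MVK and MVD, later mevalonate enzymes, fell by 0.45 and 0.34 on the log2 scale (edgeR adjusted p = 0.008 and 0.01), and neither was called without WT 3 (−0.51 and −0.44, adjusted p = 0.14 and 0.12).

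At the squalene step FDFT1, squalene synthase, was at 388, 397 and 347 CPM in WT and at 265, 262 and 262 CPM in H448L (−0.41 ± 0.04, edgeR adjusted p = 5.5e-07). SQLE, squalene epoxidase, was at 118, 120 and 132 CPM in WT and at 94.1, 94.3 and 94.0 CPM in H448L (−0.48 ± 0.05, edgeR adjusted p = 6.4e-07). In both genes the H448L libraries were nearly equal and below every WT library. Later enzymes fell as well: NSDHL by 0.50, MSMO1 by 0.45, CYP51A1 by 0.33 and DHCR7 by 0.37 on the log2 scale (edgeR adjusted p = 5.5e-05, 2.4e-06, 0.0066 and 0.00094). Of these, CYP51A1 and DHCR7 were not called without WT 3 (−0.27 and −0.39, edgeR adjusted p = 0.33 and 0.059). INSIG1, which retains the sterol sensor in the endoplasmic reticulum, fell by 0.42 (SE 0.07, edgeR adjusted p = 0.00011). The pathway's count of falls was 16 by DESeq2 and 16 with submission 4LJFHN alone, 8 without WT 3 and 4 without the submission term, with medians between −0.39 and −0.33 in these fits.

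Of 12 fatty acid synthesis genes 0 rose and 3 fell, with a median of −0.06. The share that fell was 25%, against 4.99% of all genes and 594 of the 4227 at 42.5 CPM and above. Without WT 3, 1 was called. ELOVL6, an elongase, was at 57.1, 60.6 and 65.4 CPM in WT and at 53.3, 51.4 and 54.6 CPM in H448L (−0.35 ± 0.06, edgeR adjusted p = 0.00071). The ranges did not overlap. SCD, the stearoyl-CoA desaturase, and FASN, the fatty acid synthase, were called at −0.23 ± 0.05 and −0.15 ± 0.05 (edgeR adjusted p = 0.0026 and 0.038), with overlapping libraries and no call without WT 3 (−0.14 and −0.11, adjusted p = 0.43 and 0.57); FASN was at 0.04 without the submission term. The sterol regulatory motif CACCCCAC was found before the start of 0 of 12 sterol genes that fell and have a promoter entry, and of 2.97% of all genes, which says only that these letters are not in that window.

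**Figure D3:**
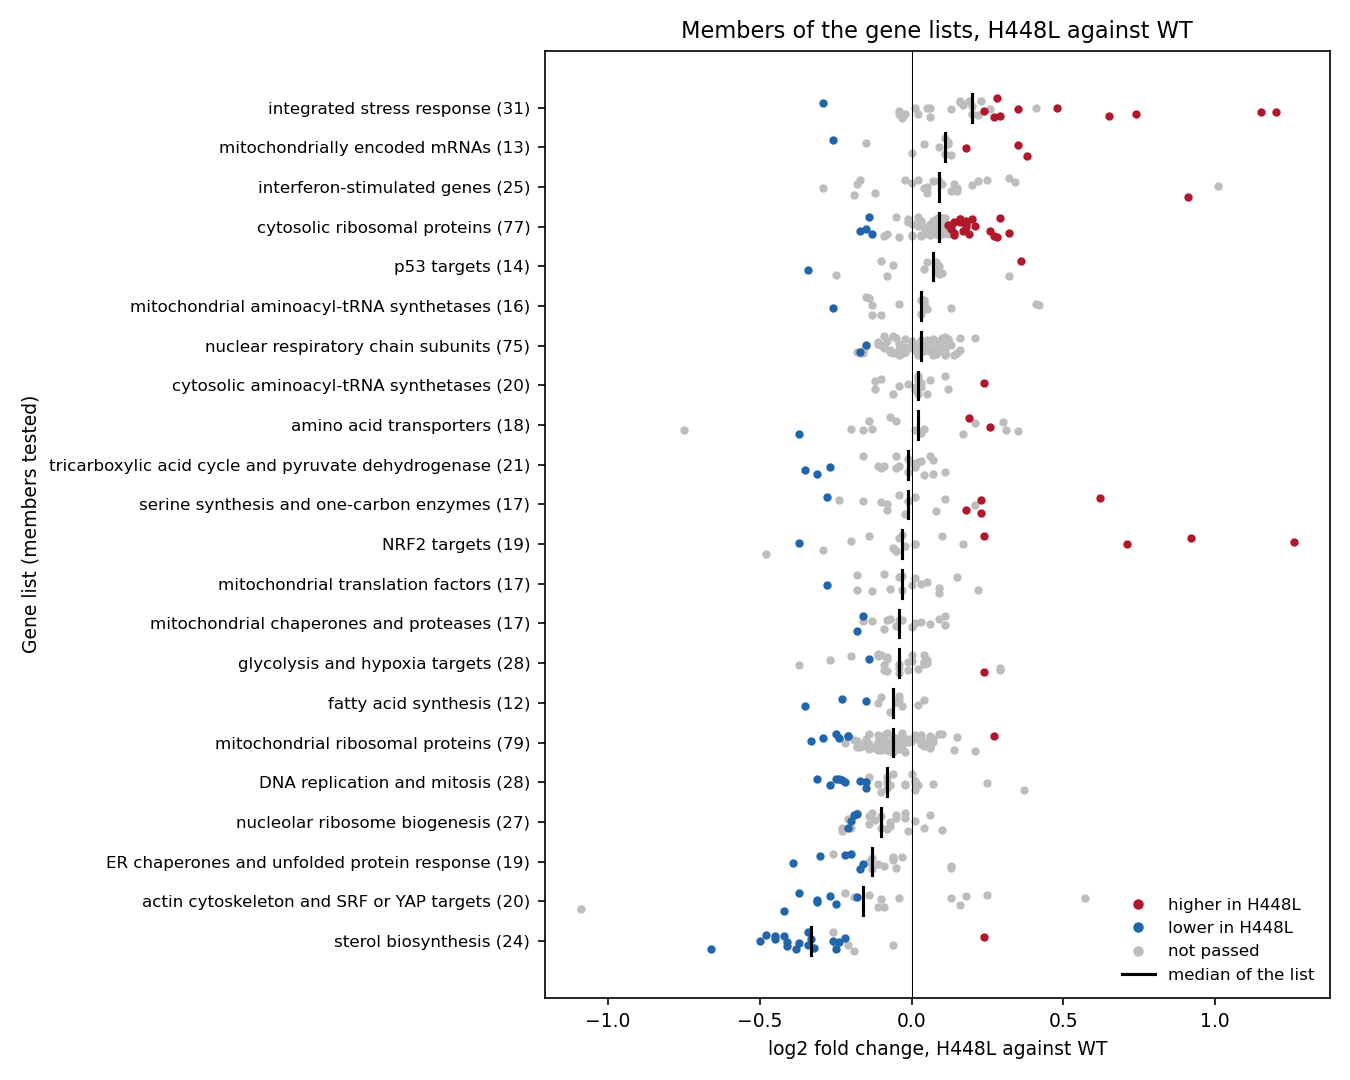
Log2 fold change of H448L against WT (horizontal axis) for each tested member of 22 gene lists, 1 point per gene, red called higher, blue called lower, grey not passed, with a black bar at the list's median. The integrated stress response has the highest median, 0.20, and sterol biosynthesis the lowest, −0.33.

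Chaperones of the endoplasmic reticulum and other genes of its unfolded protein response had falls and no rises. Of 19 tested, 0 rose and 6 fell, with a median of −0.13. The share that fell was 31.6%, against 4.99% of all genes and 594 of the 4227 at 42.5 CPM and above. Falls numbered 2 without WT 3 and 3 without R227Q 1. Without the submission term 1 was called and the median was 0.02. MANF, a secreted stress protein, was at 312, 306 and 257 CPM in WT and at 201, 195 and 198 CPM in H448L (−0.39 ± 0.05, edgeR adjusted p = 1.6e-06), all H448L below all WT. DNAJB11, a co-chaperone, was at 156, 156 and 162 CPM in WT and at 133, 141 and 128 CPM in H448L (−0.30 ± 0.05, edgeR adjusted p = 0.00027), again apart. HSPA5, the main chaperone BiP, fell by 0.17 (SE 0.05, edgeR adjusted p = 0.015; −0.17 and not called without WT 3, adjusted p = 0.31), and HSP90B1 by 0.20 (SE 0.04, edgeR adjusted p = 0.0018); the latter had overlapping libraries, no call without WT 3 (−0.20, adjusted p = 0.14) and a value of 0.06 without the submission term.

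Genes of DNA replication and mitosis had 0 rises and 9 falls among 28, with a median of −0.08. The share that fell was 32.1%, against 4.99% of all genes and 594 of the 4227 at 42.5 CPM and above. Without WT 3, 2 were called. CDC20, an activator of the anaphase-promoting complex, was at 634, 634 and 592 CPM in WT and at 502, 509 and 464 CPM in H448L (−0.31 ± 0.05, edgeR adjusted p = 6.4e-05). CCNB1, cyclin B1, was at 283, 285 and 294 CPM in WT and at 246, 247 and 240 CPM in H448L (−0.27 ± 0.05, edgeR adjusted p = 0.00023), and MCM2, a helicase subunit, fell by 0.23 (SE 0.04, edgeR adjusted p = 0.00093). In all 3 the H448L libraries were below WT, and without WT 3 CCNB1 and MCM2 were at −0.24 and −0.20 and not called (adjusted p = 0.10 and 0.19). Fewer cells in a phase and less RNA per cell cannot be told apart in bulk libraries.

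Of 77 cytosolic ribosomal protein genes 22 rose and 4 fell, with a median of 0.09, against 2.97% and 4.99% of all genes. RPS3A, of the small subunit, was at 1070, 1050 and 927 CPM in WT and at 1180, 1140 and 1200 CPM in H448L (0.32 ± 0.04, edgeR adjusted p = 9e-06), and RPL9, of the large subunit, at 1200, 1170 and 1030 CPM in WT and at 1250, 1220 and 1250 CPM in H448L (0.28 ± 0.04, edgeR adjusted p = 4.4e-05). Both had H448L above WT by a small margin. The 22 rises numbered 7 without WT 3, 9 without R227Q 1, 7 with 4LJFHN alone and 0 without the submission term, and between 16 and 24 under other scaling factors. These genes have many processed pseudogenes, so their counts are uncertain. Of 27 nucleolar assembly genes 0 rose and 4 fell, with a median of −0.10. The share that fell was 14.8%, against 4.99% of all genes and 594 of the 4227 at 42.5 CPM and above. None was called without WT 3. NOP10, of the box H/ACA particles, was at 426, 422 and 406 CPM in WT and at 379, 364 and 352 CPM in H448L (−0.18 ± 0.05, edgeR adjusted p = 0.013), and at −0.20 without WT 3 (adjusted p = 0.22).

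Of 20 members of a list of actin cytoskeleton genes and targets of SRF and YAP, 0 rose and 7 fell, and the median was −0.16. The share that fell was 35%, against 4.99% of all genes and 594 of the 4227 at 42.5 CPM and above. Falls numbered 4 without WT 3 and 4 without R227Q 1. ACTG1, gamma-actin, was at 3800, 3810 and 4300 CPM in WT and at 3460, 3450 and 3290 CPM in H448L (−0.37 ± 0.04, edgeR adjusted p = 1e-06). ACTB, beta-actin, was at 5620, 5570 and 2520 CPM in WT and at 2070, 2080 and 2050 CPM in H448L (−0.31 ± 0.04, edgeR adjusted p = 4.1e-06). For ACTB the gap between WT 3 and the other WT libraries was larger than the gap between WT 3 and H448L. TPM1, a tropomyosin, was at 218, 212 and 201 CPM in WT and 168, 160 and 165 CPM in H448L (−0.31 ± 0.05, edgeR adjusted p = 8.8e-05), with groups apart. TMSB4X, which binds actin monomers and was named after its values were seen, was at 1560, 1550 and 1390 CPM in WT and at 1060, 992 and 847 CPM in H448L (−0.57 ± 0.06, edgeR adjusted p = 5.5e-07). Its pseudogene TMSB4XP8 was called at −0.76 ± 0.20 (edgeR adjusted p = 0.018) but at −0.67 without WT 3 was not (adjusted p = 0.23), nor without R227Q 1 or H448L 3.

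Among NRF2 targets, genes of antioxidant and detoxifying enzymes, 4 of 19 rose and 1 fell, with a median of −0.03. These were 21.1% and 5.26%, against 2.97% and 4.99% of all genes. Without WT 3, 1 was called higher. HMOX1 fell (−0.37 ± 0.11, edgeR adjusted p = 0.033) and was not called without WT 3 (−0.42, adjusted p = 0.22). AKR1C1, an aldo-keto reductase, was at 5.23, 5.01 and 6.20 CPM in WT and at 11.6, 13 and 11.3 CPM in H448L (0.92 ± 0.14, edgeR adjusted p = 4.4e-05), with H448L at about the same level in every library and above all WT. Its close relatives AKR1C2 and AKR1C3 were called at 1.26 ± 0.34 and 0.71 ± 0.18 (edgeR adjusted p = 0.024 and 0.011) with overlapping libraries and no call without WT 3 (1.22 and 0.67, adjusted p = 0.19 and 0.18), and reads could be shared among the 3. NQO1, a quinone reductase, was at 112, 113 and 116 CPM in WT and at 140, 137 and 142 CPM in H448L (0.24 ± 0.05, edgeR adjusted p = 0.0019; 0.23 and not called without WT 3, adjusted p = 0.14). Lists of p53 targets and of glycolysis and hypoxia targets each had 1 rise and 1 fall, among 14 and 28 genes, none of them called without WT 3. Of 25 interferon-stimulated genes 1 rose, IFITM1, at 8.22, 8.57 and 4.30 CPM in WT and 9.21, 9.25 and 9.28 CPM in H448L (0.91 ± 0.15, edgeR adjusted p = 0.00012), and it stood only just above WT 1 and WT 2; other IFITM genes could share its reads.

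Other named rises came from genes with a mean of at least 5 CPM. NEUROG2, a transcription factor of neurogenesis, was at 4.77, 3.96 and 3.71 CPM in WT and at 8.28, 8.31 and 8.48 CPM in H448L (1.19 ± 0.16, edgeR adjusted p = 1e-05). HPGD, which degrades prostaglandins, was at 7.00, 8.15 and 9.41 CPM in WT and at 19.4, 20.2 and 17.6 CPM in H448L (1.04 ± 0.12, edgeR adjusted p = 9.4e-07). HOXB9, a homeobox factor of the posterior body, was at 8.24, 8.46 and 6.69 CPM in WT and at 15, 13 and 13.1 CPM in H448L (0.97 ± 0.13, edgeR adjusted p = 1.2e-05). In these 3 genes the lowest H448L library was above the highest WT library. XACT, a long non-coding RNA that coats active X chromosomes in human pluripotent cells, was at 34.2, 33.3 and 35.1 CPM in WT and at 64.6, 88.9 and 69.0 CPM in H448L (0.92 ± 0.10, edgeR adjusted p = 7.8e-07), and UTF1, a chromatin factor of pluripotent cells, was at 12.5, 12.4 and 12.6 CPM in WT and at 25.8, 21.3 and 24.1 CPM in H448L (0.82 ± 0.11, edgeR adjusted p = 6.9e-06). WT libraries of both submissions were alike for these 2 genes. SOX6, a transcription factor, RET, a receptor tyrosine kinase, and CRABP1, which binds retinoic acid, rose by 0.90 ± 0.17, 0.85 ± 0.14 and 0.79 ± 0.16 (edgeR adjusted p = 0.00081, 0.00014 and 0.0013), CRABP1 with no call without R227Q 1 (0.62). LINC00391, NR2E3, RHPN1 and APPAT, called at 0.92, 0.84, 0.82 and 0.80, came to 0.55, 0.62, 0.69 and 0.72 without WT 3 and were then not called (edgeR adjusted p = 0.44, 0.38, 0.24 and 0.13).

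Falls were led by LGSN, which encodes lengsin, known from the eye lens, at 9.70, 10.7 and 8.96 CPM in WT and at 4.01, 4.06 and 3.23 CPM in H448L (−1.41 ± 0.19, edgeR adjusted p = 9.7e-06; −2.09 without WT 3). ANXA1, annexin A1, a phospholipid-binding protein, was at 88.7, 99.9 and 74.3 CPM in WT and at 35.3, 36.0 and 36.4 CPM in H448L (−1.05 ± 0.07, edgeR adjusted p = 3.3e-10). In both genes every H448L library was below every WT library, by a wide gap. PTN, the growth factor pleiotrophin, was at 20.9, 20.3 and 32.9 CPM in WT and at 19.3, 18.6 and 16.7 CPM in H448L (−0.92 ± 0.10, edgeR adjusted p = 5.5e-07), and MME, the peptidase neprilysin, at 35.9, 34.6 and 59.2 CPM in WT and at 34.1, 30.5 and 32.4 CPM in H448L (−0.86 ± 0.08, edgeR adjusted p = 5.3e-08). In these the H448L libraries lay just below WT 1 and WT 2 and far below WT 3. Both calls held without WT 3 (−1.14 and −0.71), where the comparison runs through R227Q 1 to 3. Those libraries were at 7.98, 14.4 and 16.1 CPM for PTN and at 18.6, 29.7 and 25.3 CPM for MME. Without the submission term PTN and MME were at −0.49 and −0.47 and not called (edgeR adjusted p = 0.21 and 0.18). ID1, an inhibitor of basic helix-loop-helix factors, was at 150, 154 and 125 CPM in WT and at 90.2, 80.3 and 87.1 CPM in H448L (−0.55 ± 0.06, edgeR adjusted p = 4.1e-07).

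Most of the remaining named falls lost their call without WT 3, though not all of them became smaller. SEMA3A, a guidance cue, MAF, a transcription factor, and CRIP3 had H448L below all WT libraries and were called at −0.75, −0.72 and −0.69; without WT 3 they came to −0.49, −0.75 and −0.81 and were not called (edgeR adjusted p = 0.38, 0.15 and 0.099). SEPSECS-AS1 and PKIB, at −0.80 and −0.67, had overlapping libraries and were not called without WT 3 (−0.69 and −0.77, edgeR adjusted p = 0.24 and 0.27). JSRP1 was at 4.46, 4.74 and 8.96 CPM in WT and at 3.12, 4.43 and 4.44 CPM in H448L; it was called at −0.93 ± 0.24 (edgeR adjusted p = 0.012) and came to 0.23 without WT 3 (adjusted p = 0.86). It lies opposite OAZ1, a gene read at 480 CPM or more. Linker histone H1-4 was at 11.5, 11.4 and 24.7 CPM in WT and 15.8, 12.6 and 11 CPM in H448L, called at −0.80 ± 0.14 (edgeR adjusted p = 0.00037) and at −0.24 without WT 3 (adjusted p = 0.73). Core histone H4C3 was at 1210, 1430 and 880 CPM in WT and at 650, 726 and 528 CPM in H448L (−0.67 ± 0.10, edgeR adjusted p = 4.9e-05). It was still called without WT 3, at −1.02 (edgeR adjusted p = 1.5e-04). Histone mRNAs of the replication-dependent kind mostly lack a poly-A tail, so a poly-A library captures them in part, and near-identical histone genes can share reads.

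**Figure D4:**
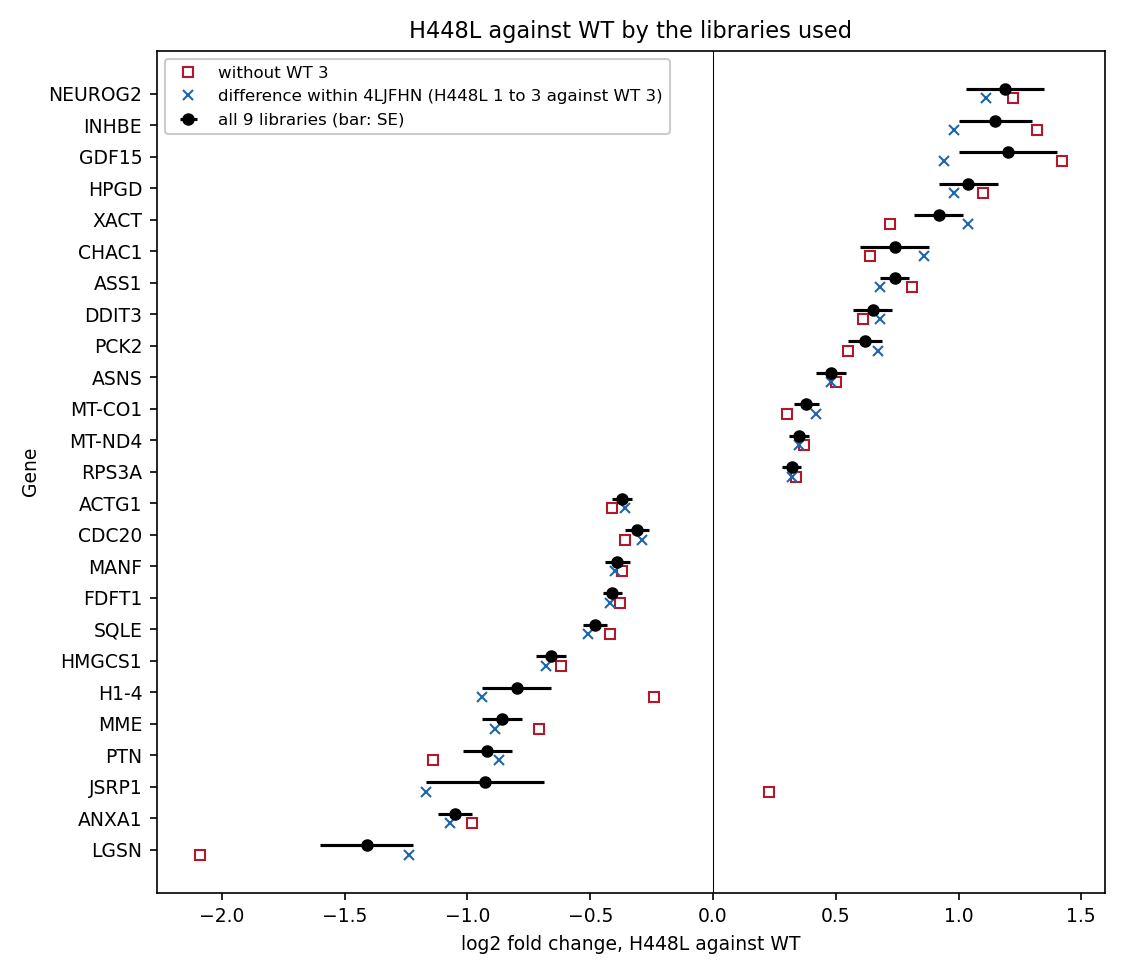
Log2 fold change of H448L against WT for 25 genes with all 9 libraries (black, bar SE), without WT 3 (open red squares) and as the difference in mean log2 CPM between H448L and WT 3 within submission 4LJFHN (blue crosses). Most genes keep their sign and rough size; JSRP1 crosses 0 without WT 3 and H1-4 moves to −0.24.

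MIR302CHG, the host transcript of the miR-302 cluster, fell. It was at 14.1, 15.1 and 14.4 CPM in WT and at 8.73, 8.35 and 7.07 CPM in H448L (−0.87 ± 0.13, edgeR adjusted p = 4.4e-05), every H448L library below every WT library, and at −0.89 it was still called without WT 3 (adjusted p = 0.024). Its span (GRCh38 chr4:112646476-112650051, minus strand) lies opposite LARP7, which did not pass (−0.09 ± 0.06, edgeR adjusted p = 0.36). The cluster is characteristic of pluripotent cells, and its 3p arms are shown because 4 of them share 1 seed, bases 2 to 8, in capitals (RefSeq, GRCh38.p14).
hsa-miR-302a-3p: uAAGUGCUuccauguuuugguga
hsa-miR-302b-3p: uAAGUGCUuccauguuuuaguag
hsa-miR-302c-3p: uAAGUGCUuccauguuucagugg
hsa-miR-302d-3p: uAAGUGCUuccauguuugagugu
hsa-miR-367-3p: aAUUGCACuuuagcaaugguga
Mature miRNAs are too short for these libraries and were not measured, so the fall is that of the host transcript alone.

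Marker genes of other cell types were checked in the same 6 libraries. Of 8 haematopoietic markers tested none passed, and their summed level was 54.4 to 185 CPM in WT and 185 to 222 CPM in H448L, the haemoglobin genes described above among them. Of 4 epithelial markers tested none passed, with sums of 82.2 to 85.2 CPM in WT and 82.5 to 93.3 CPM in H448L, nearly all of it KRT18 (69.6 to 80.2 CPM); KRT5 was at 0 in all 6. Fibroblast markers had 1 fall among 7, PDGFRA, a growth factor receptor, at 10.7, 9.32 and 9.32 CPM in WT and 6.37, 6.51 and 5.20 CPM in H448L (−0.54 ± 0.16, edgeR adjusted p = 0.030; −0.33 and not called without WT 3, adjusted p = 0.58), with sums of 1130 to 1530 CPM in WT and 1460 to 1470 CPM in H448L. Neuronal and embryonic kidney line markers had 1 fall among 9, TUBB3, a neuronal tubulin (−0.27 ± 0.06, edgeR adjusted p = 0.0033; −0.28 and not called without WT 3, adjusted p = 0.13). The part of other cells or RNA in the results was not tested.

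H448L was compared directly with R227Q to see where the 2 variants differed. In that comparison 35 genes (0.207%) were called, 14 higher (0.0828%) and 21 lower (0.124%) in H448L, 1838 had an unadjusted p under 0.05, and the count ran from 4 to 91 when single libraries were left out and was 1 without the submission term. No member of the stress response or sterol lists was called between the variants, and their median differences were −0.07 and 0.06; a missing call does not show that the variants act alike. NQO1, lower in H448L than in R227Q (−0.23 ± 0.04, edgeR adjusted p = 0.014), was the 1 list member called.

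Called against both WT and R227Q were 12 genes, 11 of them named and with a mean of at least 5 CPM. ANXA1 was at 32.7, 26.1 and 22.3 CPM in R227Q 1 to 3, below its 35.3 to 36.4 CPM in H448L (0.53 ± 0.08 higher in H448L, edgeR adjusted p = 0.00039). CRABP1 was at 20.5, 18 and 15.8 CPM in R227Q and 9.71, 7.94 and 10.4 CPM in H448L, between WT and R227Q (−0.90 ± 0.12, edgeR adjusted p = 8.1e-05). ASS1 was at 102, 103 and 104 CPM in R227Q, also beyond H448L on the same side of WT (−0.26 ± 0.05, edgeR adjusted p = 0.020). RPL22L1, a ribosomal protein paralog, was at 224, 203 and 211 CPM in WT, at 163, 160 and 178 CPM in H448L and at 124, 131 and 120 CPM in R227Q (0.41 ± 0.05 against R227Q, edgeR adjusted p = 5.4e-05). In these 4 genes H448L lay between WT and R227Q. The differences from WT of CDV3, SMC4 and YBX2 also had the sign of those of R227Q and a smaller size: −0.24, −0.26 and 0.38 in H448L and −0.49, −0.45 and 0.81 in R227Q; none of the 3 was called against WT without WT 3 (−0.21, −0.26 and 0.31). NQO1 had 0.24 in H448L and 0.47 in R227Q. Leaving out R227Q 3 ended the calls against R227Q of all but ANXA1, RPL22L1 and CRABP1 among the 11, with ASS1 then at −0.27 (edgeR adjusted p = 0.23).

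JUND, ID1 and MALAT1 were farther from WT in H448L than in R227Q. JUND, an AP-1 transcription factor, was at 225, 220 and 313 CPM in WT, 262, 266 and 250 CPM in H448L and 218, 302 and 308 CPM in R227Q (−0.25 ± 0.04 against R227Q, edgeR adjusted p = 0.0022). The libraries of submission 4LJFHN carry that difference, H448L being below WT 3, R227Q 2 and R227Q 3. ID1 was lower than in R227Q by 0.24 (SE 0.05, edgeR adjusted p = 0.037). Without R227Q 3 neither was called against R227Q (−0.23 and −0.25, adjusted p = 0.11 and 0.26). MALAT1, an abundant nuclear non-coding RNA, was at 1430, 1210 and 2300 CPM in WT and at 2680, 2790 and 3040 CPM in H448L (0.26 ± 0.06 against WT, edgeR adjusted p = 0.0049, not called without WT 3 at 0.23, adjusted p = 0.27; 0.25 ± 0.05 against R227Q, adjusted p = 0.035, and 0.19 without R227Q 3, adjusted p = 0.50), while R227Q differed from WT by 0.01 ± 0.05.

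**Figure D5:**
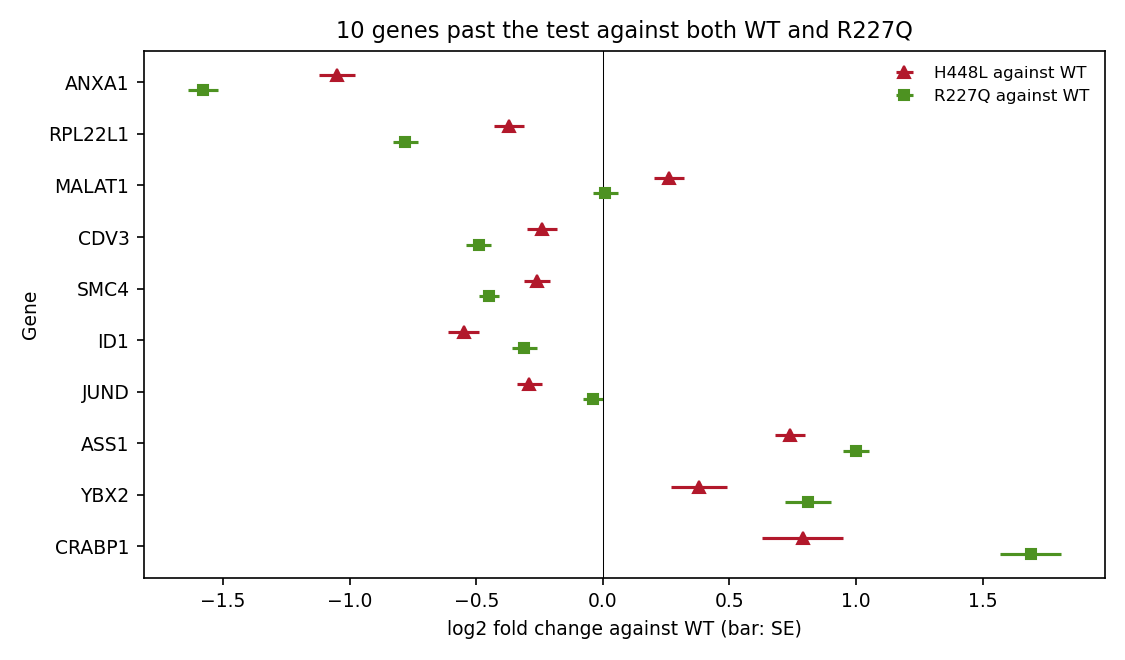
Log2 fold change against WT (bar SE) of H448L (red triangles) and R227Q (green squares) for 10 named genes called between H448L and both other groups. For 7 genes H448L lies nearer to 0 than R227Q, and for JUND, ID1 and MALAT1 farther from it; both series share the 3 WT libraries.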

How the data were processed

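Poly-A mRNA libraries of 9 Hap1 samples were made by a sequencing service, per the labels' protocols. The authors deposited estimated counts per gene and CPM in 1 table per submission, per the file headers; the submitters' processing notes name GRCh38, and aligner, counter, annotation and strand setting were not given in the sources used here. The 2 tables were joined on gene identifier, 92 ERCC entries were dropped and estimated counts were rounded. Genes passing edgeR's filterByExpr (16908) were fitted on all 9 libraries with group and submission (TMM factors 0.969 to 1.02, 5 residual degrees of freedom) and tested two-sided with edgeR's quasi-likelihood test (edgeR 4.0.16, R 4.3.3), Benjamini-Hochberg adjusted over all genes. Each SE was obtained as the absolute fold change over the square root of F. CPM values are the deposited ones. Alternatives used DESeq2 1.42.0, limma 3.58.1, other factors and filters, and left out single libraries. The procedure was tested on simulated data. Named genes were SARS2, the 15 largest rises and falls with a mean of at least 5 CPM, up to 3 members of each of 26 lists with the smallest p, a fixed set of stress response and mitochondrial genes, and up to 5 per direction called against both WT and R227Q; other names were chosen after their values were seen. Members and lists were chosen with earlier results of these data known. Gene positions are those of GENCODE 29, and promoter starts those of RefSeq.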

Additional observations from a re-analysis of the deposited data

How the results depend on the processing

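The 1347 genes called between H448L and WT (503 higher, 844 lower) became 733 with DESeq2 (143 higher, 590 lower), 147 without the submission term (76 and 71) and 734 with submission 4LJFHN alone (292 and 442). Leaving out single libraries gave 253 to 1378 genes (86 to 499 higher, 167 to 887 lower), the lowest without WT 3 and 771 without R227Q 1 (289 and 482). Calls were 37.3% higher, 47.2% with upper-quartile factors and 19.5% with DESeq2. The 35 genes called between H448L and R227Q became 54 with DESeq2, 122 with every gene that had a count, 1 without the submission term and 4 to 91 without single libraries. Called genes that changed sign included JSRP1 without WT 3 (0.23, and as low as −1.19 without another library) and, without the submission term, HSPE1 (0.04), PYCR1 (−0.06), FASN (0.04), HSP90B1 (0.06), NCL (0.03) and CHAC1 (−0.04); the cause was not tested. Whether the same replicate number paired libraries could not be decided. Residuals of H448L and WT libraries with 1 number correlated at −0.02, 0 and 0.04, and those of WT and R227Q at −0.4, 0.12 and −0.38. The fit itself shapes such values: those of WT 3 and R227Q 1 correlated at 1. The replicate block called 1055 genes, 892 of them among the 1347. H448L lies in 1 submission with 1 WT library, so within that submission the comparison rests on WT 3, and without it runs through R227Q.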

Other observations

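OLIG transcription factors of neural progenitors were higher in H448L; they were looked at after their values were seen. OLIG1 was at 1.92, 1.86 and 2.35 CPM in WT and at 8.10, 6.74 and 8.99 CPM in H448L (log2 fold change 1.55 ± 0.19, edgeR adjusted p = 4e-06), and OLIG2 was at 8.93, 8.39 and 7.96 CPM in WT and at 11.1, 13.7 and 12.2 CPM in H448L (0.71 ± 0.13, edgeR adjusted p = 0.00058). The groups did not overlap in either gene, and both calls held without any single library. OLIG3 was called at 1.48 ± 0.47 (edgeR adjusted p = 0.046) from levels of 1.92 CPM or less, and not without WT 3 (0.89, adjusted p = 0.61) or 5 other single libraries.

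HOXB9 overlaps HOXB7 on the same strand, and HOXB7 and HOXB8 had too few counts to be tested. Of the other HOXB genes tested, HOXB-AS1, an antisense RNA, was called at 0.40 ± 0.10 (edgeR adjusted p = 0.013; 0.26 and not called without WT 3, adjusted p = 0.51), and HOXB2, HOXB3, HOXB4, HOXB5, HOXB6 and HOXB13 did not pass, with log2 fold changes from −0.28 to 0.58.

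Genes read in 1 submission and at 0 in the other, at 5 CPM or more in each library where present, were HBG1, HBG2 and 1 unnamed gene in 4LJFHN and the immunoglobulin genes IGHM and IGKC in SDKYMR. COL1A2, a collagen gene, was at 0.385 and 0.155 CPM in WT 1 and WT 2, at 7.64 CPM in WT 3 and at 7.48, 10.2 and 9.70 CPM in H448L, and did not pass (0.22 ± 0.19, edgeR adjusted p = 0.56).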
